A study of Homo sapiens with 6 samples.

Results

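The genes described here encode the nuclear pore and the machinery that carries proteins and RNA through it. They were chosen by symbol in the platform annotation: nucleoporins (NUP followed by a number, TPR, AAAS, RANBP2), importins, transportins and exportins (KPNA, KPNB1, IPO, TNPO, XPO, XPOT, CSE1L), and the Ran cycle genes RAN, RCC1, RANGAP1 and RANBP1. The rule found 55 protein-coding genes, read by 78 probes, among 20046 genes and 30113 probes with 1 symbol. NXF1, which the rule also names, was not analysed here. KPNA7 and NUP210L were detected on no array, and the other 53 genes passed the filter and were tested.

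The nuclear pore complex is a ring-shaped channel through the nuclear envelope, built from scaffold nucleoporins and from others whose phenylalanine-glycine repeats fill the channel. Import receptors bind cargo in the cytoplasm, directly or through importin alpha adaptors, and release it when they meet Ran bound to GTP in the nucleus. Export receptors instead bind cargo together with Ran-GTP. RCC1 on chromatin loads Ran with GTP, and RANGAP1 with RANBP1 and RANBP2 promotes hydrolysis on the cytoplasmic side. In dividing cells several of these proteins, among them RCC1, RANGAP1, RANBP2 and the outer ring, also act at chromatin, kinetochores or the spindle.

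NCI-H460 is an established human lung cancer line of the large cell type. The parental cells (labelled WT) were grown with 10% fetal bovine serum, and a second population, enriched for cancer stem cells (CSC-rich), was propagated from them as spheroids in the same basal medium, with serum stated for the parental culture alone. Serum and population can therefore not be told apart. Each population gave 1 array of untreated cells, 1 of scramble-treated cells and 1 of cells treated with an agent named PNAs-A15, with a stated treatment time of 6 h, so that no group had a replicate. The label of the treated CSC-rich cells writes PNA, taken here as the same agent, and the meaning of that name was not given in the sources used here.

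Levels below are background-corrected, quantile-normalized Illumina signals on the log2 scale, so 1 unit is a 2-fold difference, and levels of different probes cannot be ranked against each other. Median raw signals of the arrays lay between 129.8 and 151.6, and 36.5% to 42.8% of probes had a detection p under 0.05. Both values were lowest on the parental PNAs-A15 array (129.8 and 36.5%) and next lowest on the CSC-rich scramble array (136.9 and 38.5%). The parental PNAs-A15 array stood apart: its Pearson r across genes was 0.829 to 0.873 with each other array, against 0.912 to 0.992 among the other 5. Results are therefore given with and without the PNAs-A15 arrays. Of the 53 tested members, 44 were detected on all 6 arrays and 9 were not detected on that array. Of the labelled carcinoma line's epithelial markers, KRT8 and KRT19 were detected on all 6 arrays, and KRT18, EPCAM and CDH1 on none. PTPRC, CD3E, PECAM1, VWF and CDH5 were detected on no array, CD14 and CD68 on all 6. PROM1, NANOG and POU5F1, stem cell markers, were detected on no array, while CD44, ALDH1A1 and SOX2 were detected on all 6.

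Promoter sequences are shown for the member that passed the population test (NUP210), for 2 transport factors that lay lower in CSC-rich cells (KPNA2, CSE1L), and for a nucleoporin that lay higher there (RANBP2). Each is the 250 bases before the RefSeq start on the gene's strand in GRCh38.p14: chr3:13420323-13420572 (minus) for NUP210, chr17:68035485-68035734 (plus) for KPNA2, chr20:49046062-49046311 (plus) for CSE1L and chr2:108719232-108719481 (plus) for RANBP2. Capitals mark the CCAAT box (CCAAT), the cell cycle homology region (TTTGAA) and an E2F core (TTTNNCGC) on either strand.
NUP210: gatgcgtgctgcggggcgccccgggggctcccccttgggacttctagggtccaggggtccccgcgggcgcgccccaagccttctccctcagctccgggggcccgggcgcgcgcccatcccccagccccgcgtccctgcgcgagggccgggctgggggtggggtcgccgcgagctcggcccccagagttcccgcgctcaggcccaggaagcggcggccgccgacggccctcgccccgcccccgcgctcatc
KPNA2: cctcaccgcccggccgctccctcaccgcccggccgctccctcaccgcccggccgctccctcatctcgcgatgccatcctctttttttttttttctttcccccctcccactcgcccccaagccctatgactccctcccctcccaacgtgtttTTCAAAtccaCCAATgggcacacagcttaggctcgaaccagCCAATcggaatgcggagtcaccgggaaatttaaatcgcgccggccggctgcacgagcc
CSE1L: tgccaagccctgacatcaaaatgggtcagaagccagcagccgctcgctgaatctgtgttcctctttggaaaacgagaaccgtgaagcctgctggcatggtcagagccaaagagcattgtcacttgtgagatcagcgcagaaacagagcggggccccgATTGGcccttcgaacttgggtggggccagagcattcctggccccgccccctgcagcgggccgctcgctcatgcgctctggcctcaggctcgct
RANBP2: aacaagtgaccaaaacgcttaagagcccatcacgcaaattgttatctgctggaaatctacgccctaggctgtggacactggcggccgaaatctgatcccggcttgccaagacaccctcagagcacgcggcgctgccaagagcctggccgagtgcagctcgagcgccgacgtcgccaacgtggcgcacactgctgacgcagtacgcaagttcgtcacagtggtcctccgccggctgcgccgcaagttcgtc
The KPNA2 window held a TTTGAA match that begins 99 bases before the start and CCAAT boxes that begin 89 and 58 bases before it, all read on the shown or the opposite strand. The CSE1L window held 1 CCAAT box, and neither NUP210 nor RANBP2 held any of the 3 motifs in its window. Among the 48 members with a listed promoter, 22 (45.8%) held a CCAAT box, 8 (16.7%) TTTGAA and 3 (6.25%) the E2F core. The shares among 27305 promoters of all genes, 1 for each gene, were 33%, 13.6% and 5.93%. Of the 19 members that lay lower on every CSC-rich array than on every parental array, 9 held a CCAAT box, 3 TTTGAA and 0 the E2F core.

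The first comparison asked how the transport machinery differed between CSC-rich and parental cells. NUP210, a membrane-spanning nucleoporin, was 4.50-fold lower in CSC-rich cells and was the only member past the threshold over all 6 arrays, 1 of 53 beside 2.35% of all 12101 genes (1.49% lower, 0.859% higher). At an unadjusted p under 0.05 there were 14 members beside 19.1% of all genes, and 33 members had a fitted value below 0 beside 49.4%. Without the PNAs-A15 arrays the picture was broader: 16 members were lower in CSC-rich cells and 3 higher in limma's fit of the 4 untreated and scramble arrays, against 8.89% of all genes lower and 10.6% higher (19 members beside 19.5% in either direction). Fitted values were below 0 for 39 members, beside 44.3% of all genes. Among 4062 genes with a mean level between the members' quartiles, 9.10 and 11.84, 9.38% were lower and 11% higher, and of the 27 members there 9 were lower and 0 higher. The 16 included the Ran exchange factor RCC1, the tRNA exportin XPOT, the scaffold nucleoporins NUP93 and NUP188, and the importin alpha recycling factor CSE1L. The 3 were RANBP2, IPO8 and TNPO1, the last by its main probe.

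The same genes can be read without a model. On 19 members every CSC-rich array lay below every parental array, and on 3 every CSC-rich array lay above, where 17.2% and 16.7% of all genes did so. The median difference of the members was -0.38 in untreated cells, -0.40 with scramble and -0.18 with PNAs-A15, beside 0.04, 0.14 and -0.15 for all genes. In untreated cells 6 members were at least 2-fold lower (5.91% of all genes) and 0 at least 2-fold higher (6.62%). With scramble these were 14 (13.2%) and 4 (15.9%), and on the PNAs-A15 pair 9 (20%) and 17 (18.4%). Because RNA came from whole cultures, fewer cells of a kind and less RNA per cell cannot be told apart.

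**Figure D1:**
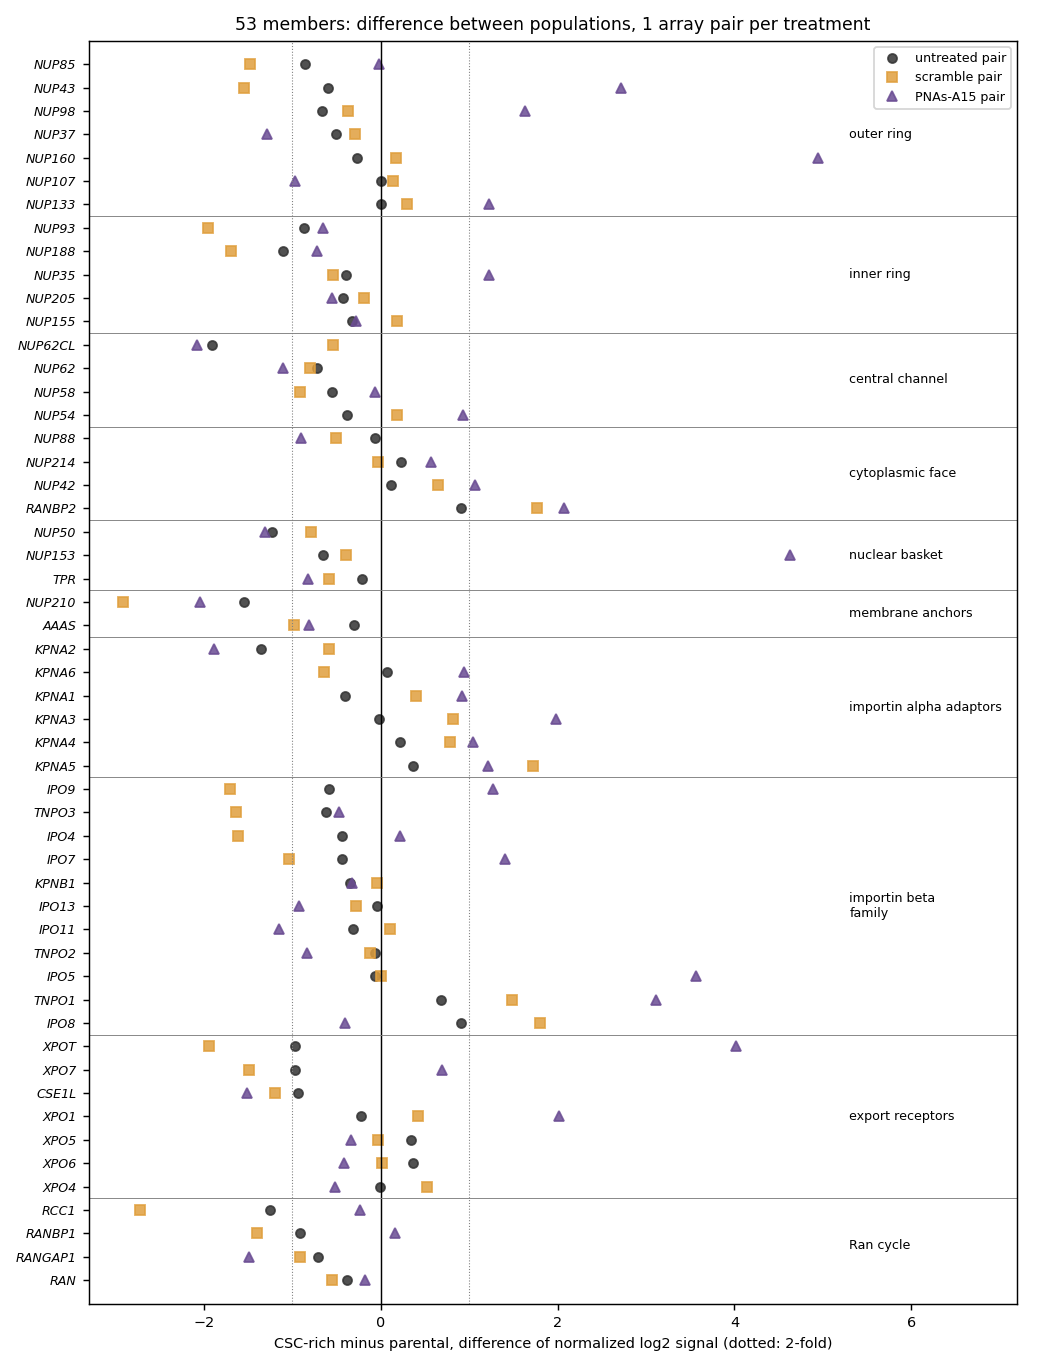
Difference of normalized log2 signal between CSC-rich and parental cells for each of the 53 tested members, grouped by role, with 1 point per treatment pair (circle untreated, square scramble, triangle PNAs-A15) and dotted lines at 2-fold. Circles and squares lie mostly left of 0, with NUP210 at -1.55 and -2.92, while triangles of NUP160, NUP153, XPOT and IPO5 lie far to the right, at 4.95, 4.63, 4.02 and 3.57.

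Markers of dividing cells moved with the same contrast. All 12 of them, among them TOP2A, AURKB and CDC20, were lower in CSC-rich cells past the threshold over 6 arrays (limma), beside 1.49% of all genes. Of the 12, 10 were detected on all 6 arrays, AURKB on 5 and MKI67 on 3. List medians were 11.95, 11.94 and 12.19 on the untreated, scramble and PNAs-A15 parental arrays and 7.44, 7.89 and 8.0 on the CSC-rich arrays. The markers' median difference over 6 arrays was -4.04, against -0.28 for the transport genes. The part of cell division in the differences below was not tested.

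Among the membrane anchors, NUP210 had levels of 10.46, 10.93 and 10.96 on the untreated, scramble and PNAs-A15 parental arrays and of 8.92, 8.01 and 8.91 on the CSC-rich arrays. The populations did not overlap, and the CSC-rich scramble array was the lowest. The difference was -2.17 ± 0.38 (SE, n = 3 arrays per population; limma adjusted p 0.0405), and -2.23 ± 0.36 without the PNAs-A15 arrays (adjusted p 0.000634). Without the scramble arrays it was -1.80 and no longer passed (limma adjusted p 0.204). The adjusted p was also above the threshold with median scaling (0.117), on unnormalized signals (0.172) and with no filter on dim probes (0.134). AAAS (aladin), which is held at the pore by the membrane protein NDC1, also did not overlap between populations, with a fitted difference of -0.70 ± 0.33 that did not pass (limma adjusted p 0.316).

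**Figure D2:**
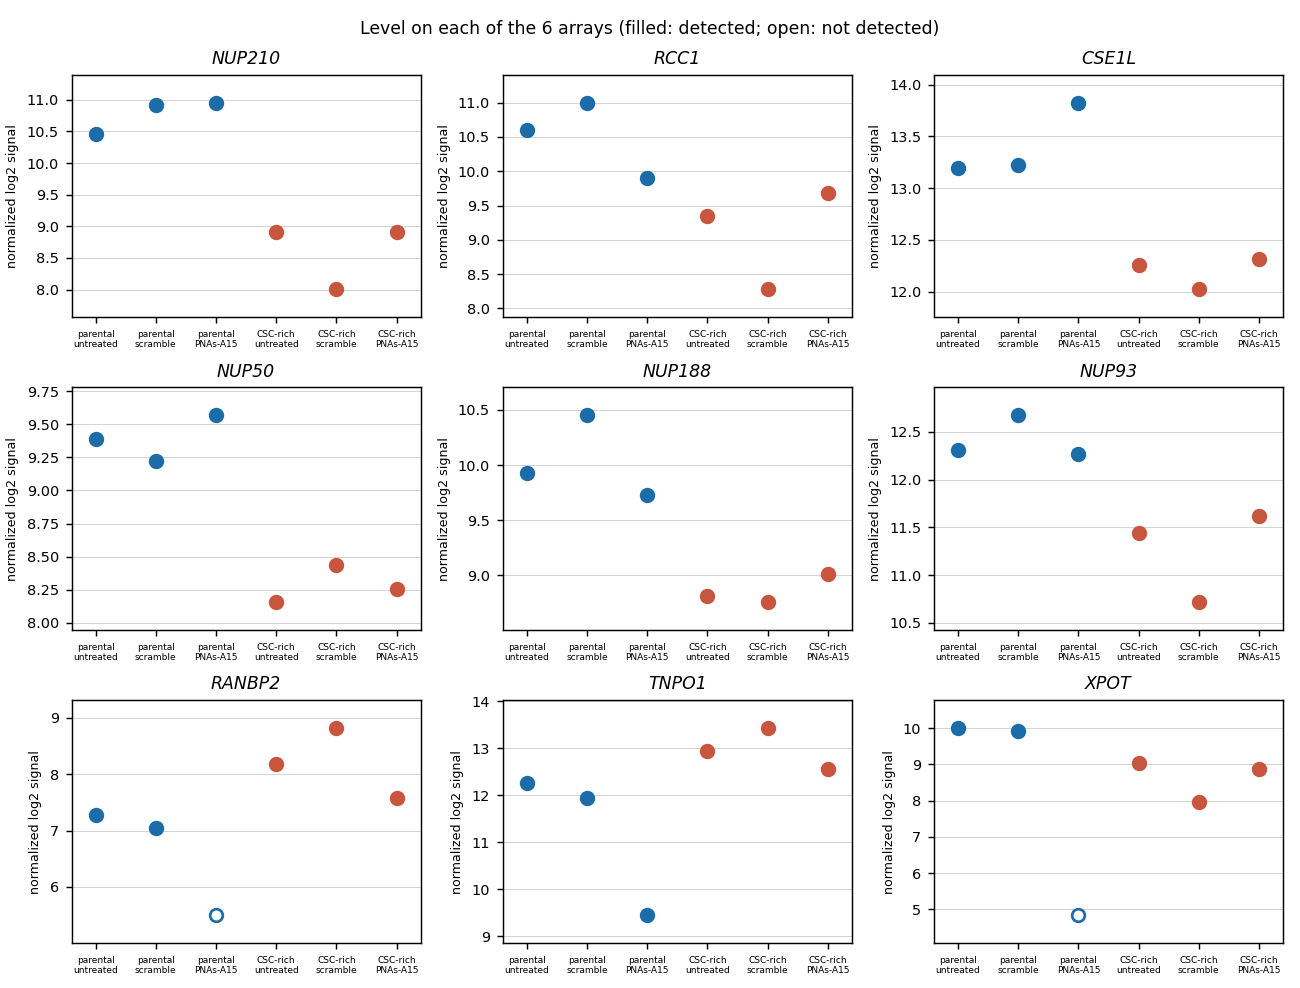
Normalized log2 signal of 9 members on each array, blue for parental and red for CSC-rich cells, with open circles where the probe was not detected. In NUP210, RCC1, CSE1L, NUP50, NUP188 and NUP93 all 3 red points lie below all blue points, whereas in XPOT the parental PNAs-A15 array, at 4.85, lies below every other array.

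The inner ring, the scaffold that lines the channel, lay lower in CSC-rich cells for NUP188 and NUP93. NUP188 was at 9.93, 10.45 and 9.73 on the parental untreated, scramble and PNAs-A15 arrays and at 8.82, 8.76 and 9.01 on the CSC-rich arrays. NUP93 was at 12.31, 12.67 and 12.27 on parental arrays and at 11.44, 10.72 and 11.62 on CSC-rich arrays. Neither overlapped between populations. Over 6 arrays neither passed (NUP188 -1.18 ± 0.35, limma adjusted p 0.144; NUP93 -1.16 ± 0.38, adjusted p 0.176), and on the 4 arrays without PNAs-A15 both did (NUP188 -1.40 ± 0.32, adjusted p 0.00711; NUP93 -1.41 ± 0.34, adjusted p 0.01). NUP205, NUP155 and NUP35 had 4-array differences of -0.31, -0.07 and -0.47 and did not pass.

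The outer ring, or Y complex, coats both faces of the pore. On the 4 arrays 2 of its 7 members were lower past the threshold, beside 16 of all 53 members and 8.89% of all genes. NUP85 differed by -1.17 ± 0.32 (limma adjusted p 0.0201) and NUP43 by -1.07 ± 0.33 (adjusted p 0.0364). NUP107, NUP133 and NUP160 lay within 0.15 of 0 in that fit, and NUP37 and NUP98 at -0.40 and -0.52. NUP98 was placed in this group by gene, in the list of roles used here, and not by protein product. Over all 6 arrays NUP160 had the second highest fitted difference of the members, 1.62 ± 0.96, which rested on its level of 6.33 on the parental PNAs-A15 array. Its other levels were 11.93 and 11.72 on the untreated and scramble parental arrays and 11.66, 11.89 and 11.28 on the CSC-rich arrays.

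For the central channel, NUP62, a repeat nucleoporin, did not overlap between populations: it was at 12.57, 12.61 and 13.13 on the untreated, scramble and PNAs-A15 parental arrays and at 11.85, 11.81 and 12.03 on the CSC-rich arrays. Its difference of -0.87 ± 0.32 did not pass (limma adjusted p 0.212). NUP62CL, whose symbol marks it as NUP62-like at its C-terminus, was at 9.22, 8.79 and 9.63 on parental and 7.31, 8.25 and 7.55 on CSC-rich arrays, again without overlap. It had the second lowest fitted difference of the members, -1.51 ± 0.41 over 6 arrays (limma adjusted p 0.126) and -1.23 ± 0.36 on the 4 arrays (adjusted p 0.0274). NUP54 lay at 0.24 ± 0.38 and -0.10 ± 0.32 in the 6-array and 4-array fits. NUP58 was detected on 2 parental arrays alone, close to the detection limit.

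The nuclear basket reaches from the pore into the nucleus. Its mobile component NUP50 was at 9.39, 9.23 and 9.57 on the untreated, scramble and PNAs-A15 parental arrays and at 8.16, 8.43 and 8.26 on the CSC-rich arrays. This separation of about 1 unit held in each treatment pair, with a 4-array difference of -1.01 ± 0.32 (limma adjusted p 0.0362) and -1.11 ± 0.33 over 6 arrays (adjusted p 0.142). TPR, which forms the basket filaments, did not overlap between populations but differed by only -0.54 ± 0.33, short of the threshold (limma adjusted p 0.415). NUP153, which anchors the basket, differed by -0.65 and -0.40 in the untreated and scramble pairs.

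On the cytoplasmic face, RANBP2, a large filament protein with SUMO ligase activity, went the other way. It was at 7.28, 7.04 and 5.51 on the untreated, scramble and PNAs-A15 parental arrays, the last not detected, and at 8.18, 8.81 and 7.58 on the CSC-rich arrays. All CSC-rich arrays lay above all parental arrays, but the spread within CSC-rich cells exceeded 1 unit. The difference was 1.58 ± 0.37 over 6 arrays (limma adjusted p 0.0876) and 1.34 ± 0.33 on the 4 arrays (adjusted p 0.0112). The annotation names 7 RGPD genes that are near-copies of RANBP2, and the probe's specificity among them was not checked. NUP88, NUP214 and NUP42 had 4-array differences between -0.29 and 0.38 and did not pass.

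Among importin alpha adaptors, which bind the classical nuclear localization signal, KPNA2 was the member that lay lower in CSC-rich cells. The probe that stood for it was at 10.45, 10.06 and 10.96 on the untreated, scramble and PNAs-A15 parental arrays and at 9.10, 9.48 and 9.07 on the CSC-rich arrays. The populations did not overlap on this probe, with differences of -1.28 ± 0.38 over 6 arrays (limma adjusted p 0.143) and -0.97 ± 0.33 on the 4 arrays (adjusted p 0.0494). The other 5 adaptors had 4-array differences from -0.29 (KPNA6) to 1.04 (KPNA5), and none of them passed. KPNA5 was detected on 4 arrays, at 6.12 on the parental untreated array and at 6.48, 6.88 and 6.18 on the untreated, scramble and PNAs-A15 CSC-rich arrays. Its levels on the parental scramble and PNAs-A15 arrays, 5.16 and 4.97, were below detection.

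Import receptors of the importin beta family split in direction. On the 4 arrays IPO9 (-1.14 ± 0.34, limma adjusted p 0.0308), TNPO3 (-1.13 ± 0.34, adjusted p 0.0305) and IPO4 (-1.03 ± 0.35, adjusted p 0.0499) were lower in CSC-rich cells. TNPO3 is the import receptor of phosphorylated SR splicing factors. IPO8 (1.35 ± 0.33, limma adjusted p 0.0107) and the main probe of TNPO1 (1.08 ± 0.33, adjusted p 0.0319) were higher. On that probe TNPO1, the import receptor of hnRNP A1, was at 12.27, 11.95 and 9.45 on the untreated, scramble and PNAs-A15 parental arrays and at 12.95, 13.43 and 12.56 on the CSC-rich arrays. Its other detected probes differed by 0.33 and -0.24 in the untreated pair and by -1.10 and -1.01 in the scramble pair. IPO8 was at 7.40, 7.01 and 8.42 on parental and 8.30, 8.81 and 8.01 on CSC-rich arrays, so that the PNAs-A15 pair ran against the other pairs. KPNB1, importin beta itself, differed by -0.20 ± 0.31 on the 4 arrays and IPO5 by -0.03 ± 0.31. IPO7, IPO11, IPO13 and TNPO2 lay between -0.74 and -0.09, with none past the threshold.

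Of the export receptors, CSE1L returns importin alpha to the cytoplasm, and it was read by 2 probes that gave like values. The main probe was at 13.20, 13.23 and 13.83 on the untreated, scramble and PNAs-A15 parental arrays and at 12.26, 12.02 and 12.32 on the CSC-rich arrays. Its difference was -1.22 ± 0.33 over 6 arrays (limma adjusted p 0.124) and -1.07 ± 0.31 on the 4 arrays (adjusted p 0.0272). The second probe of CSE1L differed by -1.08, -1.29 and -1.14 in the untreated, scramble and PNAs-A15 pairs. On the 4 arrays XPOT, which exports tRNA, differed by -1.45 ± 0.34 and XPO7 by -1.23 ± 0.32, both lower (limma adjusted p 0.00761 and 0.0143). XPO1 (CRM1), the receptor of leucine-rich export signals, lay at 0.10 ± 0.32 on the 4 arrays, and XPO4, XPO5 and XPO6 lay between 0.16 and 0.26.

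All 4 Ran cycle genes had negative fitted differences. RCC1 was at 10.60, 11.002 and 9.91 on the untreated, scramble and PNAs-A15 parental arrays and at 9.35, 8.28 and 9.68 on the CSC-rich arrays. No CSC-rich array reached the parental range, but the pair differences ran from -0.23 with PNAs-A15 to -2.72 with scramble. RCC1 differed by -1.40 ± 0.50 over 6 arrays (limma adjusted p 0.201) and by -1.99 ± 0.36 on the 4 arrays (adjusted p 0.0017), a 3.96-fold difference. RANBP1 differed by -1.16 ± 0.32 on the 4 arrays (limma adjusted p 0.0194). RANGAP1 and RAN, at -0.82 ± 0.31 and -0.47 ± 0.31 there, did not pass (limma adjusted p 0.0812 and 0.325), although neither overlapped between populations on its main probe. The second probe of RAN did overlap, with 10.87 on the parental PNAs-A15 array against 11.54, 11.08 and 11.31 on the untreated, scramble and PNAs-A15 CSC-rich arrays.

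The CSC-rich scramble array was the lowest CSC-rich array for several of these genes, including NUP210, NUP93, RCC1 and XPOT. With this array and the parental PNAs-A15 array left out together, in a fit without the treatment term, 19 members were lower and 1 higher, beside 13% and 17.5% of all genes (30.5% in either direction). The parental arrays in that fit were untreated and scramble, and the CSC-rich arrays untreated and PNAs-A15. Any difference between scramble and PNAs-A15 can therefore not be told apart there from that between populations. NUP210 (-1.78 ± 0.19), RCC1 (-1.29 ± 0.20), CSE1L (-0.92 ± 0.15), NUP50 (-1.10 ± 0.16) and KPNA2 (-1.17 ± 0.18) passed in that limma fit, with adjusted p between 0.00147 and 0.00559. IPO8 was the 1 higher (0.95 ± 0.20, limma adjusted p 0.0149). TNPO1 and RANBP2 lay at 0.65 ± 0.20 and 0.72 ± 0.23 and missed the threshold (adjusted p 0.0519 and 0.0569), as did TNPO3 and IPO4 (adjusted p 0.0506 and 0.0789).

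The second comparison asked what PNAs-A15 did to these genes against scramble. In parental cells 21 of 53 members were at least 2-fold lower on the PNAs-A15 array and 1 was at least 2-fold higher, beside 16.8% and 20.9% of all genes. The lower members came from every role except the membrane anchors, with 4 of 7 in the outer ring and 4 of 6 among importin alpha adaptors. Against the untreated array, which shares the PNAs-A15 array with this comparison, 21 were lower and 2 higher, beside 17.2% and 20.5%. With 1 array on each side there is no test of these differences. The median of the members was -0.40 and that of all genes 0.20. Among 3299 genes with a parental untreated level between the members' quartiles, 9.66 and 12.06, 19.6% were at least 2-fold lower and 14.6% higher, and of the 27 members there 12 were lower and 0 higher.

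The largest differences were losses of signal. NUP160, a Y complex scaffold, differed by -5.39 between PNAs-A15 and scramble in parental cells and stayed just detected. NUP153, at 10.92, 10.76 and 5.56 on the untreated, scramble and PNAs-A15 parental arrays, was not detected on the last and was thus at least 26.4-fold lower than with scramble. XPOT, at 9.99, 9.91 and 4.85, was at least 14.7-fold lower. IPO5, an importin of ribosomal proteins and histones, was at least 7.85-fold lower, with levels of 9.24, 9.01 and 5.39. NUP43 (8.09, 8.22 and 4.87) was at least 4.56-fold lower and NUP98 (7.90, 7.61 and 5.14) at least 2.98-fold. On the CSC-rich untreated, scramble and PNAs-A15 arrays these genes stayed detected. There NUP160 was at 11.66, 11.89 and 11.28, NUP153 at 10.27, 10.36 and 10.19, and IPO5 at 9.18, 9.01 and 8.96. NUP98 was at 7.23, 7.24 and 6.77. XPOT, at 9.03, 7.97 and 8.86, and NUP43, at 7.49, 6.68 and 7.58, were lowest with scramble.

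Other receptors lay lower with PNAs-A15 in parental cells but were well detected. TNPO1 differed from scramble by -2.49, XPO1 by -2.28, IPO9 by -2.14, KPNA3 by -1.97 and XPO7 by -1.72. XPO1, for example, went from 13.26 and 12.95 on the untreated and scramble parental arrays to 10.67 with PNAs-A15. At the other end, IPO8 differed by 1.41 and was the 1 member at least 2-fold higher, followed by IPO11 (0.95), RANGAP1 (0.93), KPNA2 (0.90), NUP107 (0.89) and NUP62CL (0.84). RANGAP1, for example, was at 12.01 and 12.03 on the untreated and scramble arrays and at 12.96 with PNAs-A15. IPO11 was at 11.17, 11.01 and 11.96, and NUP107 at 11.22, 11.11 and 12.00. NUP210, RAN, KPNB1, NUP155 and NUP214 differed by less than 0.2 either way. These values are those of the main probes after normalization, and the higher ones depend on that step. Raw parental signals with scramble and PNAs-A15 were 278 and 289 for IPO8, 1455 and 1517 for KPNA2, and 686 and 595 for NUP62CL. They were 2611 and 3328 for IPO11, 4953 and 7003 for RANGAP1, and 2768 and 3426 for NUP107. By its second probe KPNA2 was at least 56.7-fold lower with PNAs-A15 than with scramble, below detection. The second probe of RAN differed by -1.21, and the other detected probes of TNPO1 by -2.93 and 0.37.

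**Figure D3:**
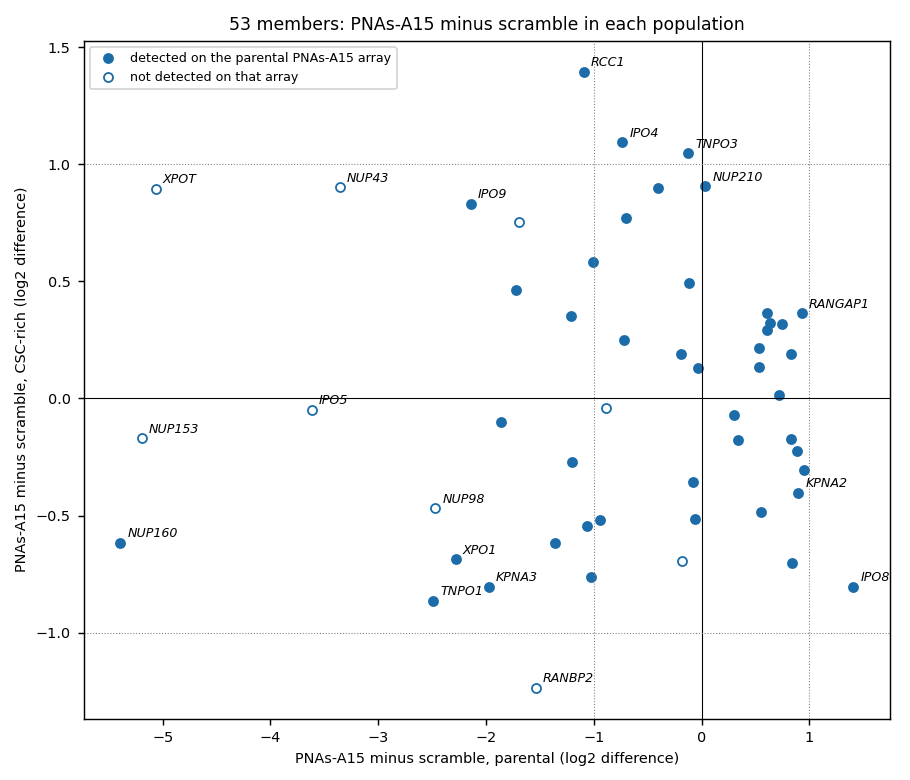
PNAs-A15 minus scramble for each of the 53 members, parental cells on the x axis and CSC-rich cells on the y axis, in log2 units with dotted lines at 2-fold and open circles for genes not detected on the parental PNAs-A15 array. Points spread from -5.39 to 1.41 along the x axis and from -1.23 to 1.40 along the y axis.

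In CSC-rich cells PNAs-A15 and scramble lay closer together. There 1 member was at least 2-fold lower (3.04% of all genes) and 3 at least 2-fold higher (6.34%). RANBP2 was the lower one, at -1.23, followed by TNPO1 at -0.86 and IPO8 at -0.80, while RCC1 (1.40), IPO4 (1.09) and TNPO3 (1.05) were the higher ones. IPO4 was at 10.49, 9.58 and 10.68 on the untreated, scramble and PNAs-A15 CSC-rich arrays, and TNPO3 at 9.12, 8.38 and 9.42, so that in both the scramble array was the low one. Against the untreated array, PNAs-A15 moved no member by 2-fold in CSC-rich cells (0.19% of all genes lower, 0.256% higher), with the members' differences between -0.60 (RANBP2) and 0.36 (NUP214). RCC1, IPO4 and TNPO3 differed from untreated by 0.33, 0.19 and 0.31 there.

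Scramble itself differed little from untreated in parental cells, where members lay between -0.96 (KPNA5, below detection with scramble) and 0.52 (NUP188) and 0 were 2-fold apart (0.165% of all genes lower, 0.438% higher). In CSC-rich cells 2 members, RCC1 (-1.07) and XPOT (-1.06), were at least 2-fold lower with scramble (2.88% of all genes) and 0 were at least 2-fold higher (0.735%).

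Tested over both populations with limma's additive fit, no member passed for PNAs-A15 against scramble, PNAs-A15 against untreated or scramble against untreated, and 0% of all genes did. At an unadjusted p under 0.05 the counts of members were 6, 6 and 0, beside 4.16%, 3.77% and 0.00826% of all genes. The same 6 genes made up both counts and all were lower with PNAs-A15: NUP160, NUP98, RANBP2, TNPO1, KPNA3 and XPO1. The 2 comparisons share their PNAs-A15 arrays. For PNAs-A15 minus scramble the fitted values were -3.01 ± 1.17 for NUP160 and -1.39 ± 0.45 for RANBP2, both with a limma adjusted p of 0.785. The populations did not show like sizes, since NUP160 differed by -5.39 in parental and -0.62 in CSC-rich cells. With the CSC-rich PNAs-A15 array left out, so that the parental PNAs-A15 array stood alone for the agent, 18 members were lower than scramble past the threshold and 0 higher, beside 13.7% and 15.2% of all genes. In that limma fit the spread comes from the other groups, and the lone array is assumed to vary like them, so the calls rest on that array's own differences.

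Probes of the same gene did not always give the same answer, and the disagreement lay on particular arrays. There were 10 members with at least 2 detected probes. In the untreated population pair 0 of them had probes that differed by 2 log2 units or more, beside 0.791% of 3159 genes with several kept probes. Between scramble and untreated 0 did in either population, beside 0% (parental) and 0.475% (CSC-rich). On PNAs-A15 minus scramble in parental cells 2 did (KPNA2 and TNPO1), beside 28.3% of 3159 genes with several kept probes. On the scramble population pair 3 did (KPNA2, TNPO1 and NUP62), beside 10.7% of those genes. For PNAs-A15 minus untreated in parental cells 3 did (KPNA2, TNPO1 and NUP35), beside 25%. In the PNAs-A15 population pair 2 did (KPNA2 and TNPO1), beside 25.1%.

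KPNA2 showed the widest gap. Its second probe was at 11.50, 11.86 and 5.93 on the untreated, scramble and PNAs-A15 parental arrays, the last not detected, and at 9.55, 8.38 and 9.84 on the CSC-rich arrays. By this probe KPNA2 was at least 56.7-fold lower with PNAs-A15 than with scramble in parental cells, whereas the main probe was higher by 0.90. Both probes are annotated to the same transcript. They gave one direction in the untreated pair (-1.35 and -1.94) and the scramble pair (-0.59 and -3.48), and opposite directions in the PNAs-A15 pair (-1.89 and 3.91). The annotation lists 3 KPNA2 pseudogenes, and cross-hybridization was not checked.

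TNPO1 was read by 3 detected probes, all annotated to the same transcript. For PNAs-A15 minus scramble in parental cells they differed by -2.49, -2.93 and 0.37. In the scramble population pair the main probe was higher in CSC-rich cells by 1.48 and the others were lower, by -1.10 and -1.01, so the higher level of TNPO1 given above was seen on the main probe alone there. In the same probe order, the differences were 0.68, 0.33 and -0.24 in the untreated pair. They were 3.11, 2.69 and -1.18 in the PNAs-A15 pair. NUP62's second probe, which is annotated to a different transcript, was lower in CSC-rich cells by -1.11, -2.89 and -0.40 in the untreated, scramble and PNAs-A15 pairs, against -0.72, -0.79 and -1.11 on the main probe. RANBP1 differed by -1.21 and -2.44 on its probes for PNAs-A15 minus scramble in parental cells, NUP35 by -1.86 and -3.62, NUP54 by -1.36 and -2.84, and RAN by -0.19 and -1.21. Both probes were lower in each of these 4 genes. The probes of CSE1L, NUP42 and XPO4 gave the same direction in PNAs-A15 minus scramble in parental cells, with differences of 0.60 and 0.13, -0.94 and -0.80, and 0.55 and 0.87.

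**Figure D4:**
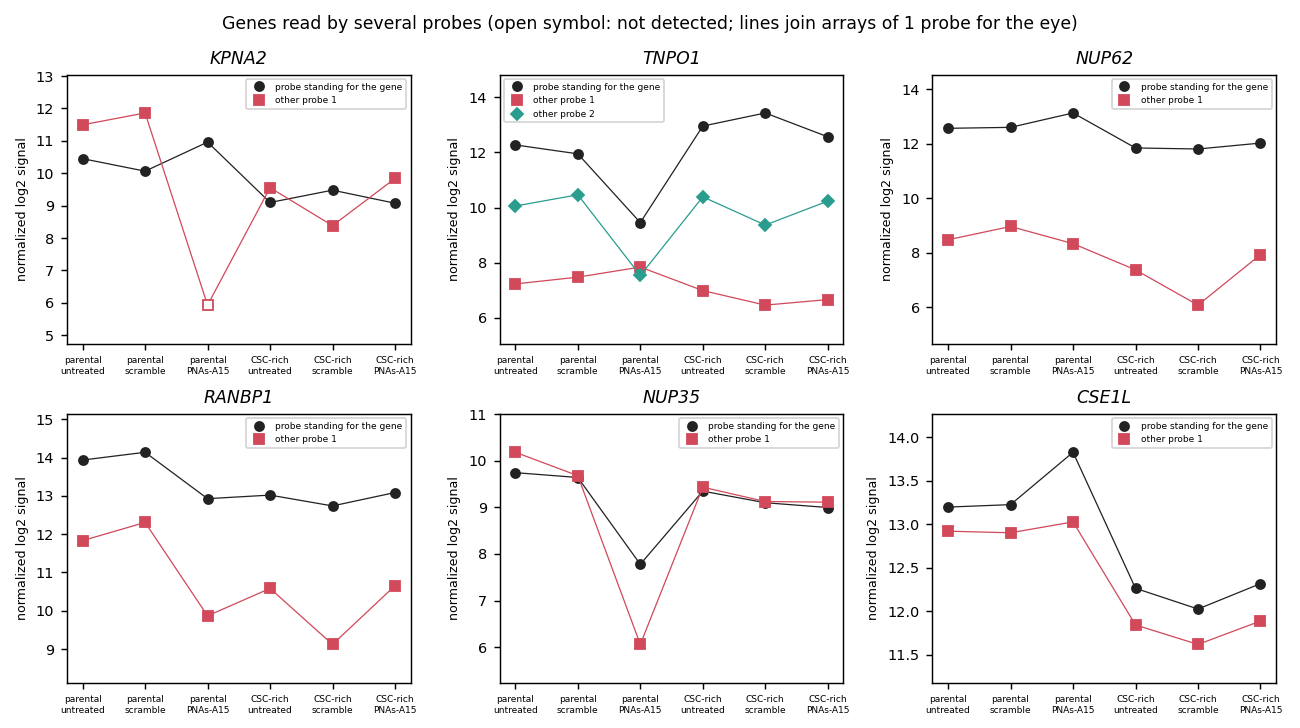
Normalized log2 signal by array for 6 members read by several probes, 1 colour per probe, with open symbols where the probe was not detected. The probes of KPNA2 part by 6.83 log2 units in PNAs-A15 minus scramble on the parental arrays, and those of CSE1L run in parallel.

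Other genes of the pathway came from a list of 31 further pore, adaptor and mRNA export genes, of which 28 were measured. On 10 of them every CSC-rich array lay below every parental array and on 1 every CSC-rich array lay above, beside 17.2% and 16.7% of all genes. Fitted values over 6 arrays were below 0 for 23 of the 28, beside 49.4% of all genes, with a median of -0.33. Past the threshold there were 0 over 6 arrays, beside 2.35% of all genes. At an unadjusted p under 0.05 in that limma fit there were 2, beside 19.1% of all genes. On the 4 arrays 1 passed, beside 19.5%. It was THOC3, a subunit of the THO complex of mRNA export, lower by -1.50 ± 0.36 (limma adjusted p 0.00893). THOC3 was at 9.41, 9.80 and 8.65 on the untreated, scramble and PNAs-A15 parental arrays and at 8.58, 7.63 and 8.62 on the CSC-rich arrays. The other lowest gene over 6 arrays was RANBP3, a cofactor of XPO1, at -0.89 ± 0.37 (limma adjusted p 0.251). The highest were SEH1L of the Y complex, at 1.47 ± 0.55, and RANBP6, at 0.77 ± 0.41, with limma adjusted p 0.215 and 0.356. SEH1L had its lowest level, 7.78, on the parental PNAs-A15 array, against 10.54 to 11.58 elsewhere. In PNAs-A15 minus scramble in parental cells 4 of the 28 were at least 2-fold lower and 5 at least 2-fold higher, beside 16.8% and 20.9% of all genes.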

How the data were processed

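Total RNA was hybridised to Illumina HumanHT-12 v4 arrays, 1 per group. The deposited table holds linear intensities and detection p-values of 47323 probes and 6 arrays, made with GenomeStudio 2011.1 per the submitters' processing notes, and earlier background subtraction by the authors is not stated there. The deposited series matrix equalled these intensities in 100% of cells. Here signals were corrected with limma 3.58.1 in R 4.3.3 (normal-exponential model, offset 16, background inferred from the deposited detection p-values), quantile-normalized and log2-transformed. Of the probes, 30113 had 1 symbol in the platform annotation, 8 several and 17202 none. Probes detected (p under 0.05) on 2 or more arrays were kept, and the brightest probe on average stood for its gene (12101 genes).

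Population and treatment were fitted additively with limma over all genes (2 residual degrees of freedom; 1 without the PNAs-A15 arrays), with Benjamini-Hochberg adjustment and a threshold of 0.05. The spread in the fit holds array noise and any treatment effect that differs between populations. No label says whether cultures were separate, so p-values measure the spread between these arrays, which may be technical, and their number limits the precision. Single arrays were compared by counts at least 2-fold apart, without a test. A probe not detected on an array has only a bound there: "at least N-fold" sets the detected level against the higher of that array's lowest detected signal and the probe's own.

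Members, lists and named genes were chosen with earlier results of these data known. Named genes were those past the threshold, the extremes of each contrast (6 each way, 3 in CSC-rich cells) and genes whose probes differed by 2 log2 units; for the other pathway genes, the 2 extremes each way. Members that passed on the 4 arrays were added after their values were seen, and NUP62CL was placed with the central channel by its name. All 55 member identifiers matched the RefSeq gene table. Promoters are from RefSeq (GRCh38.p14), the first listed start of a gene. The 6-array population fit was run on simulated data with known shifts and the same spread for every gene and array. Those data hold no outlying array, so they do not test the fits with the parental PNAs-A15 array in them. No label or header used here gives a scan or slide batch.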

Additional observations from a re-analysis of the deposited data

Results flagged for a closer look

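RCC1, the exchange factor of Ran, differed between PNAs-A15 and scramble by at least 2-fold in opposite directions in the 2 populations, by -1.09 in parental and 1.40 in CSC-rich cells. Each value rests on 1 array pair, and the difference between the populations was not tested. Against untreated cells the values were -0.69 and 0.33, neither at least 2-fold.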

How the results depend on the processing

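No paired analysis was possible because each group holds 1 array and the labels carry no replicate numbers. In CSC-rich minus parental cells, 1 member was lower and 0 higher past the threshold. The lower count was 0 with median scaling, 0 on unnormalized signals and 0 with no filter on dim probes. With no treatment term it was 3. The shares of all genes in those settings are not given here. When the PNAs-A15 array of parental and the scramble array of CSC-rich cells were both left out, 19 were lower and 1 higher, beside 13% and 17.5% of all genes. No residual degree of freedom was left for a treatment term in that fit. Leaving out each array or treatment pair gave 0 to 16 lower and 0 to 3 higher. Leaving out 1 array of a treatment gives the same population estimate as leaving out both. The counts of 16 and 3 came without a PNAs-A15 array, beside 8.89% and 10.6% of all genes. The members' median, -0.28, ran from -0.40 to -0.21 in these fits and stayed below 0 in every alternative run. For PNAs-A15 against scramble over both populations, leaving out an array gave 0 to 18 members lower. Against untreated it gave 0 to 16 lower and 0 to 1 higher. The highest counts came without the CSC-rich PNAs-A15 array, where the parental PNAs-A15 array stood alone for the agent. The 18 stood beside 13.7% of all genes lower and 15.2% higher. Shares for the 16 and the 1 are not given here, so those counts cannot be read as particular to the members.

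Counts of members at least 2-fold apart moved as follows. On unnormalized signals there was 1 higher in the scramble population pair (4 in the main setting), 5 lower in the PNAs-A15 pair (9), 0 higher for PNAs-A15 against scramble (1) and against untreated (2) in parental cells, and in CSC-rich cells 0 lower for PNAs-A15 against scramble (1) and 4 lower for scramble against untreated (2). With median scaling 0 were higher for both PNAs-A15 comparisons in parental cells and 1 was lower for scramble against untreated; in CSC-rich cells 0 were lower and 7 higher for PNAs-A15 against scramble (3), and 5 lower for scramble against untreated. With detection on all 6 arrays, 2 were higher in the scramble pair, 9 higher in the PNAs-A15 pair (17) and 13 lower for PNAs-A15 against untreated in parental cells (21), with 0 lower for PNAs-A15 against scramble and 1 lower for scramble against untreated in CSC-rich cells. That filter leaves fewer members, and the cause of the other moves was not tested. Shares of all genes in these alternative settings are not given here, so the moves cannot be read as particular to the members. Scaling moved the median of all genes for PNAs-A15 minus scramble in parental cells from 0.20 to -0.29 (median scaling) and -0.43 (unnormalized).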
